A study of Rattus norvegicus and Mus musculus with 18 samples.

Results

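Heat shock and folding chaperones were followed in the embryonic kidney through 35 probe sets of 8 genes, out of 71239 non-control probe sets on 4 array designs. A probe set is a group of short oligonucleotides that together measure a transcript. It was taken here when the platform annotation gave it exactly 1 symbol and that symbol was Hspa1a, Hspa1b, Hspa8, Hspa5, Hsph1, Hspb1, Hsp90aa1 or Dnajb1. The mouse design held 22 of them among 45037 probe sets and covered all 8 genes. The first rat design held 12 among 8740, rat design B held 0 among 8732 and rat design C held 1 among 8730. The rat probe sets covered 5 genes, all but Hspa1b, Hspa8 and Hsp90aa1, and another 10 rat probe sets that listed a chaperone beside other symbols were left out.

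Chaperones bind exposed stretches of other proteins and help them to fold, refold or be degraded. HSP70 proteins work in cycles of ATP binding and hydrolysis, started by DnaJ cochaperones and reset by nucleotide exchange factors, and they pass some clients on to HSP90. Inducible members are transcribed when the factor HSF1 binds heat shock elements in their promoters, while cognate members are made in unstressed cells, and the HSP70 of the endoplasmic reticulum answers to the unfolded protein response.

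Mouse kidneys at E12.5 (days of gestation) were separated into ureteric bud tips, bud stalks and metanephric mesenchyme, and rat kidneys at E13.5 into whole ureteric buds and mesenchyme. The bud is an epithelial outgrowth whose repeated branching forms the collecting system, and the mesenchyme around it is the source of nephrons and stroma. All groups shared an exposure of 10 min to DNase and trypsin before they were pulled apart, and the labels name no strain, mutation or drug. Pools of about 1000 tips, 350 stalks and 300 mesenchymes were made in mouse, and of about 1200 buds and 240 mesenchymes in rat. Each tissue gave 1 pooled RNA, of which 1 ug was labelled in 2 separate reactions, so the p-values measure only labelling and hybridisation spread and not the spread between animals. In such pieces of tissue, fewer cells of a type and less RNA per cell cannot be told apart, and precision is limited by how few arrays there are.

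The tissues carried the markers of their labels. The summed intensity of 7 ureteric bud epithelium markers was 23385 and 22648 on the tip arrays, 11452 and 11612 on the stalk arrays, and 529 and 465 on the mesenchyme arrays of mouse. For 7 nephron progenitor markers the sums were 766 and 671 in tips, 1895 and 1838 in stalks, and 5818 and 5800 in mesenchyme. For 6 markers of stroma and ureteric mesenchyme they were 554 and 380 in tips, 7182 and 6967 in stalks, and 5664 and 5654 in mesenchyme, so the stalk pool carried stromal transcripts that the tip pool held at much lower signal. On the first rat design, 5 bud epithelium markers summed to 3394 and 3381 in bud and to 472 and 473 in mesenchyme. The second rat bud labelling stood apart. For the Gapdh control, signal at the 3' end divided by that at the 5' end gave a ratio of 4.26 to 5.28 over the 3 rat designs, against 1.25 to 1.47 on the other rat arrays and 0.90 to 1.01 on the mouse arrays.

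Promoter sequences were available for 6 of the 8 genes in the RefSeq table of the rat build GRCr8, and not for Hsp90aa1 and Hspa1b. Each covers 250 bases before to 50 bases after the start of the gene. The canonical heat shock element was searched on both strands as alternating GAA and TTC units separated by NN, with 3 units in a row or with 2 units in either order, GAANNTTC or TTCNNGAA, which the 3-unit form contains. The endoplasmic reticulum stress element was searched on both strands as CCAAT and CCACG separated by 9 bases. Of the 4 promoters that follow, those of Hspa8 and Hsph1 hold the 3-unit form, that of Hspb1 only the 2-unit form and that of Hspa5 the stress element. Capitals mark the matched letters, and the sequences read 5' to 3' on the strand of the gene.
Hspa8 promoter, rat chr8:50080264-50080563, plus strand: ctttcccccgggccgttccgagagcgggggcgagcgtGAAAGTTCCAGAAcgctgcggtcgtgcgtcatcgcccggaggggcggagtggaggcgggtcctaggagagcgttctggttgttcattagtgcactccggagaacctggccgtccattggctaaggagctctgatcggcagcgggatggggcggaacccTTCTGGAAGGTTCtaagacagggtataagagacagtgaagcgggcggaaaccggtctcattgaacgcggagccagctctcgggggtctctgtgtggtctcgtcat
Hsph1 promoter, rat chr12:10427118-10427417, plus strand: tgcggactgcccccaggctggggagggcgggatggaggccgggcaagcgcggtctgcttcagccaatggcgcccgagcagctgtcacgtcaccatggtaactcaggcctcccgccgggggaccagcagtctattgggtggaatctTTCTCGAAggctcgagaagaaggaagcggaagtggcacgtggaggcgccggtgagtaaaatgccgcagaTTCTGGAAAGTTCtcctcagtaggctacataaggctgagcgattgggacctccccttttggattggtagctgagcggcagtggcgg
Hspb1 promoter, rat chr12:26432252-26432551, minus strand: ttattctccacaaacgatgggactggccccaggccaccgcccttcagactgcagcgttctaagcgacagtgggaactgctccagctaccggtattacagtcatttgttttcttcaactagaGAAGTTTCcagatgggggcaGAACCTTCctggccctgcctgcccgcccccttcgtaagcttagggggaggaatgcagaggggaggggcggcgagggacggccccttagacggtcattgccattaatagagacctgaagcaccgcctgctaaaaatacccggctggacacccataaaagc
Hspa5 promoter, rat chr3:38452766-38453065, plus strand: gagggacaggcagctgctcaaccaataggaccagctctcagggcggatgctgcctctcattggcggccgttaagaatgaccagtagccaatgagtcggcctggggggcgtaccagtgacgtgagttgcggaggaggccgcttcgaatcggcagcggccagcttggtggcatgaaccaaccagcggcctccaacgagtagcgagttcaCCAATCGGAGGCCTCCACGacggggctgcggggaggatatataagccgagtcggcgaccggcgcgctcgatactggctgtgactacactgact

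The 3-unit element lay at positions -213 to -201 and -55 to -43 of the Hspa8 window and at -36 to -24 of the Hsph1 window, counted from the start of the gene. Of all 33469 rat promoter windows of the same length, 0.798% held it. Apart from its 3-unit match, the Hsph1 window held the 2-unit form at -105 to -98. The Hspb1 window held the 2-unit form at -129 to -122 and at -109 to -102, and the Dnajb1 window held it at -11 to -4 and at 18 to 25. In all, 4 of the 6 windows held the 2-unit form, against 15.9% of all windows. The Hspa5 window alone among the 6 held the stress element, at -43 to -25, and 0.0657% of all windows did. The Hspa1a window held none of these elements. Sequence outside the window, or near any other start of the gene, was not searched, so this does not show that Hspa1a lacks them. A match describes the sequence and is not a measured binding site.

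Intensities are on the linear scale after quantile normalisation within each design, and differences are on the scale log2(intensity + 16), which understates changes of weakly hybridised probe sets. A difference passed when its limma p-value, adjusted by the Benjamini-Hochberg method over every tested probe set of the design, was under 0.05. It was called when it also reached 2-fold. Probe sets whose mean reached the median of the design in no tissue were not tested, which left 19 of 22 probe sets in mouse, 10 of 12 on the first rat design and 1 of 1 on design C.

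In mouse the heat-inducible HSP70 gene Hspa1b and the small heat shock protein gene Hspb1 had their highest signals in stalk, intermediate signals in tip and their lowest in mesenchyme, on every probe set. The other 6 genes differed by less than 2-fold between all tissues. Between stalk and mesenchyme 5 of 19 tested probe sets were called higher in stalk, all 3 of Hspa1b and both of Hspb1, and 0 lower, while 2.34% of all tested probe sets were called higher and 0.426% lower. Between tip and mesenchyme 1 was called higher in tip, an Hspb1 probe set, and 0 lower, against 3.89% and 4.26% of all. Between tip and stalk 0 were called higher and 0 lower by limma, against 0.951% and 3.63% of all. At any fold, 4 passed as higher and 5 as lower in tip than in stalk, with 11 under an unadjusted p of 0.05, beside 13.8% and 14.7% of all. The same counts were 8 higher and 2 lower for tip against mesenchyme, beside 16.1% and 17.5% of all, and 5 higher and 1 lower for stalk against mesenchyme, beside 8.15% and 4.91%. The median log2 difference of the 19 was 0.04 for tip minus stalk, 0.12 for tip minus mesenchyme and 0.00 for stalk minus mesenchyme, beside 0.06, 0.01 and -0.05 over all tested probe sets.

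**Figure D1:**
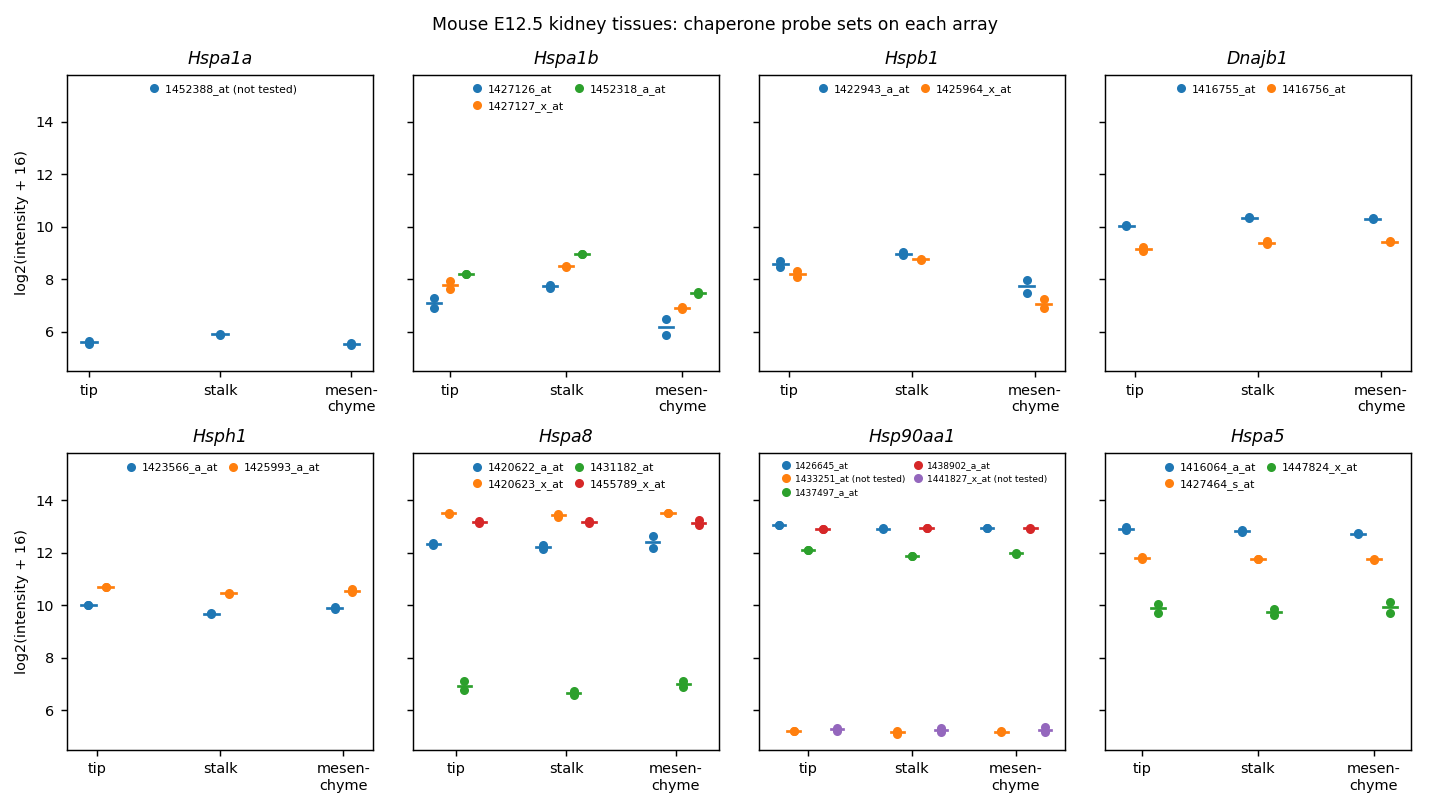
Signal of all 22 mouse probe sets on each array, as log2(intensity + 16), with 1 panel per gene and 2 arrays each for tip, stalk and mesenchyme. Points are arrays, short bars are means and colours are probe sets. Hspa1b and Hspb1 step down from stalk through tip to mesenchyme, and the panels of the other genes are nearly flat.

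**Figure D2:**
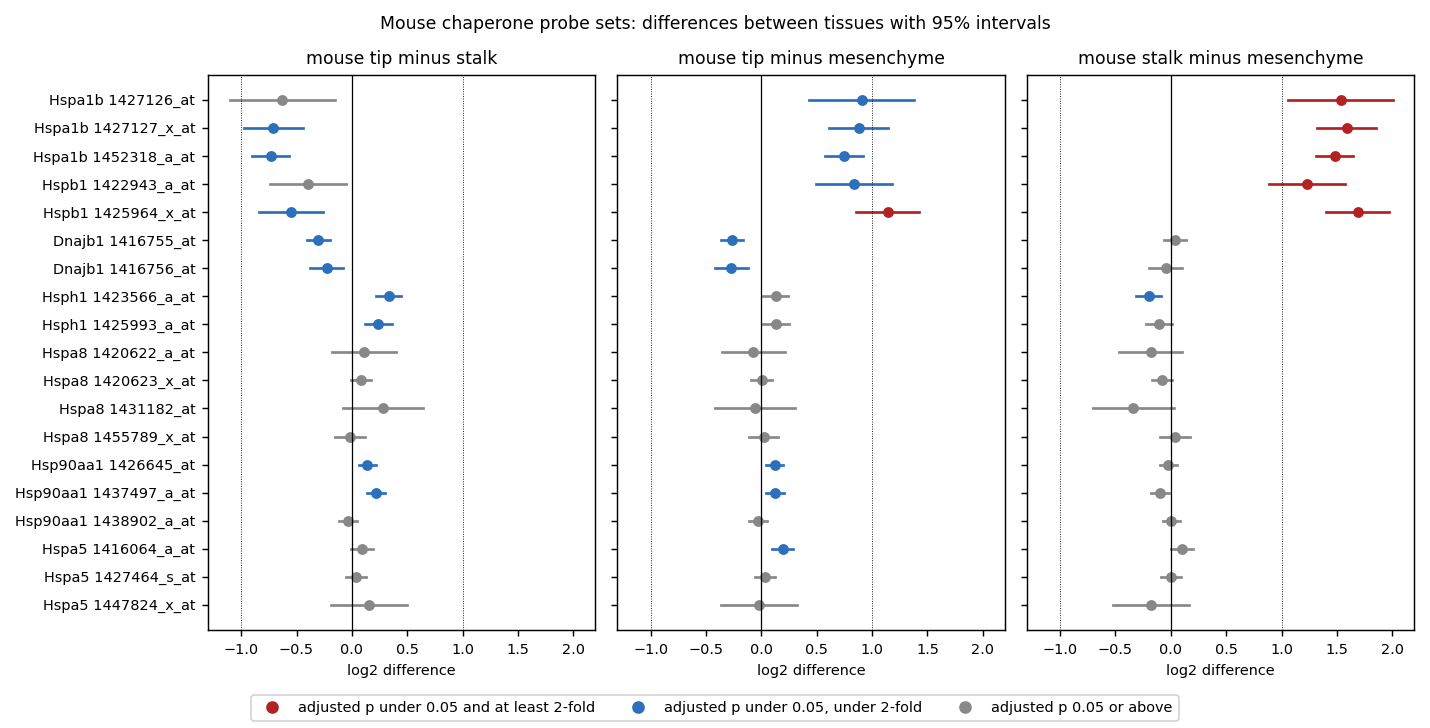
Log2 differences of the 19 tested mouse probe sets for tip minus stalk, tip minus mesenchyme and stalk minus mesenchyme, with 95% intervals from the limma fit. Dotted lines mark 2-fold. The 5 probe sets of Hspa1b and Hspb1 lie between 1.23 and 1.69 for stalk minus mesenchyme, and the other 14 lie between -0.34 and 0.10.

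Hspa1b encodes a stress-inducible cytosolic HSP70. Its brightest probe set, 1452318_a_at, read 283 and 283 on the tip arrays, 480 and 482 on the stalk arrays, and 166 and 159 on the mesenchyme arrays. The 3 tissues did not overlap. Stalk exceeded mesenchyme by 1.48 on the log2 scale (2.79-fold, SE 0.074, adjusted p = 2.88e-06), and tip exceeded mesenchyme by 0.75 (1.68-fold, adjusted p = 6.92e-05). Tip lay below stalk by a log2 difference of -0.73 (adjusted p = 0.000132).

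The second Hspa1b probe set, 1427127_x_at, read 229 and 184 in tip, 349 and 343 in stalk, and 109 and 100 in mesenchyme. Stalk exceeded mesenchyme by 1.59 (3.01-fold, adjusted p = 3.01e-05), tip exceeded mesenchyme by 0.88 (adjusted p = 0.000423), and tip minus stalk was -0.71 (adjusted p = 0.00214). The order of the tissues was the same as for 1452318_a_at. The dimmest, 1427126_at, read 140 and 106 in tip, 191 and 203 in stalk, and 74.9 and 43.4 in mesenchyme. Stalk exceeded mesenchyme by 1.53 (2.89-fold, adjusted p = 0.00121) and tip exceeded mesenchyme by 0.91 (adjusted p = 0.0088), while tip minus stalk was -0.63 with an adjusted p of 0.0515. No arrays of different tissues overlapped here either, but the mesenchyme arrays differed most from each other. Without the second mesenchyme array, tip minus mesenchyme was 0.60 for 1427126_at and no longer passed (adjusted p = 0.0529). Without the first tip array, or without the first or second mesenchyme array, tip minus stalk passed for it, at -0.80, -0.63 and -0.63.

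Hspa1a is the near-identical neighbour of Hspa1b, so transcripts of the pair can share hybridisation, and the ending _x_at marks probe sets with some oligonucleotides that match other sequences. Its single mouse probe set, 1452388_at, read 34.6 and 31.0 in tip, 45.0 and 43.1 in stalk, and 29.7 and 32.1 in mesenchyme. Both stalk arrays were above all others, and tip and mesenchyme overlapped. These intensities were below 49.3, the median of the mouse design, and the probe set was not tested.

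Hspb1 encodes the ATP-independent small heat shock protein known as HSP25 in mouse and HSP27 in human, which holds unfolded proteins and protects actin filaments. Probe set 1425964_x_at read 307 and 258 in tip, 414 and 425 in stalk, and 135 and 105 in mesenchyme. It was the probe set called in tip against mesenchyme, with a log2 difference of 1.14 (2.2-fold, SE 0.13, adjusted p = 0.00013), and stalk exceeded mesenchyme by 1.69 (3.22-fold, adjusted p = 3.13e-05). Tip minus stalk was -0.55 (adjusted p = 0.011). The tissues did not overlap. Without the second mesenchyme array the tip difference was 0.98, short of 2-fold. Without the first or the second stalk array, tip minus stalk was -0.57 (adjusted p = 0.0718) or -0.53 (adjusted p = 0.0858) and did not pass.

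Probe set 1422943_a_at of Hspb1 read 340 and 397 in tip, 471 and 505 in stalk, and 164 and 239 in mesenchyme. Stalk exceeded mesenchyme by 1.23 (2.35-fold, adjusted p = 0.000664) and tip exceeded mesenchyme by 0.84 (1.79-fold, adjusted p = 0.00245). The tissues again did not overlap, although tip minus stalk, at -0.39, did not pass (adjusted p = 0.0852). It passed at the same difference without the first (adjusted p = 0.0187) or the second mesenchyme array (adjusted p = 0.0194). Without the first mesenchyme array, stalk minus mesenchyme was 0.98 and below 2-fold, and tip minus mesenchyme was 0.59; without the second, tip minus mesenchyme was 1.09 and reached 2-fold.

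The signals of other cell types and of stress-responsive genes differed between the same tissues. The 16 immediate-early genes, which are switched on within minutes of a stimulus such as dissection or growth factor, summed to 16231 and 16008 in tip, 24247 and 24253 in stalk, and 17560 and 18152 in mesenchyme. In tip against stalk 3 of them were called lower, Fos by a log2 difference of -1.57, Fosb by -1.15 and Klf4 by -1.10, beside 3.63% of all probe sets. At any fold 11 passed as lower, beside 14.7% of all, with a list median of -0.40 beside 0.06 over all probe sets. In stalk against mesenchyme Klf6 was called higher, at 1.27, beside 2.34% of all. There 11 passed as higher and 1 as lower, beside 8.15% and 4.91% of all, with a median of 0.48 beside -0.05. In tip against mesenchyme 6 passed as higher and 5 as lower, beside 16.1% and 17.5% of all, with a median of 0.11 beside 0.01. The list was therefore highest in stalk, as Hspa1b and Hspb1 were, but its sum was lower in tip than in mesenchyme although its median difference was above 0, and both of those genes were higher in tip than in mesenchyme. The stromal marker sum was also highest in stalk and lowest in tip, and the bud epithelium sum was highest in tip. Of the stromal markers, Lum (1.29), Postn (1.34) and Tbx18 (1.23) were called higher in stalk than in mesenchyme. Foxd1 (-1.13) was called lower there, and Col1a1 and Pdgfra did not pass. Of all probe sets 2.34% were called higher and 0.426% lower. Endothelial markers summed to 536 and 531 in tip, 1323 and 1364 in stalk, and 2088 and 2069 in mesenchyme, and the erythroid, macrophage and neuronal sums were likewise lowest in tip and highest in mesenchyme. The part of these other transcripts in the Hspa1b and Hspb1 differences was not tested.

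Dnajb1 encodes the DnaJ cochaperone HSP40, which delivers clients to HSP70 and stimulates its ATPase. Probe set 1416755_at read 1051 and 1036 in tip, 1267 and 1314 in stalk, and 1270 and 1244 in mesenchyme. Both tip arrays were below all others, and stalk and mesenchyme overlapped. Tip lay below stalk by a log2 difference of -0.30 (SE 0.044, adjusted p = 0.00105) and below mesenchyme by -0.26 (adjusted p = 0.00154), and stalk minus mesenchyme was 0.04 (adjusted p = 0.661). Probe set 1416756_at read 583 and 533 in tip, 630 and 682 in stalk, and 683 and 671 in mesenchyme. The tip arrays were again lowest, with -0.23 against stalk (adjusted p = 0.0299) and -0.27 against mesenchyme (adjusted p = 0.011). With the arrays scaled to a common median in place of quantile normalisation, no Dnajb1 difference passed (adjusted p = 0.192 to 0.415 for the 4 tip differences). The passes of 1416756_at against stalk and mesenchyme ended with the values as deposited (adjusted p = 0.151 and 0.141). They also ended with no intensity trend in the fit (adjusted p = 0.0984 and 0.0528). That against stalk ended with no filter on low values too (adjusted p = 0.0584). For 1416756_at, tip minus stalk also did not pass without the second tip array (-0.16), the first stalk array (-0.28) or the second stalk array (-0.17), nor did tip minus mesenchyme without the first mesenchyme array (-0.26).

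Hsph1 encodes HSP105, a large HSP70-like protein that resets HSP70 by exchanging its nucleotide. Probe set 1423566_a_at read 1020 and 1007 in tip, 815 and 789 in stalk, and 949 and 900 in mesenchyme. After normalisation stalk was lowest on both arrays and tip highest. In the deposited values tip, at 1072.7 and 952.9, overlapped mesenchyme, at 970.9 and 858.2. Tip exceeded stalk by 0.33 (1.26-fold, adjusted p = 0.00122), stalk minus mesenchyme was -0.20 (adjusted p = 0.0296), and tip minus mesenchyme was 0.13 (adjusted p = 0.0748). Probe set 1425993_a_at read 1655 and 1621 in tip, 1397 and 1374 in stalk, and 1566 and 1422 in mesenchyme. Tip exceeded stalk by 0.24 (adjusted p = 0.00884), and its other differences, 0.13 for tip and -0.11 for stalk against mesenchyme, did not pass. Hsph1 thus had its lowest signal in the tissue where Hspa1b and Hspb1 had their highest. With median scaling no Hsph1 difference passed, and tip minus stalk was then 0.29 (adjusted p = 0.336) and 0.21 (adjusted p = 0.469). With no intensity trend in the fit, the passes of tip minus stalk for 1425993_a_at (adjusted p = 0.0732) and stalk minus mesenchyme for 1423566_a_at (adjusted p = 0.15) ended. The values as deposited ended the same passes (adjusted p = 0.082 and 0.485). No filter on low values ended the latter too (adjusted p = 0.067). Stalk minus mesenchyme of 1423566_a_at did not pass when any stalk or mesenchyme array was left out (-0.24 to -0.16). For 1425993_a_at tip minus stalk did not pass without the first (0.25) or the second stalk array (0.23), and tip minus mesenchyme passed without the first mesenchyme array, at 0.20.

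Hspa8 encodes the cognate HSP70, HSC70, which folds new proteins and uncoats clathrin vesicles. Probe set 1420623_x_at read 11774 and 11377 in tip, 11245 and 10609 in stalk, and 11543 and 11575 in mesenchyme. Probe set 1455789_x_at read 9314 and 8978 in tip, 9450 and 9059 in stalk, and 9600 and 8465 in mesenchyme. None of the 4 Hspa8 probe sets passed in any of these comparisons, and their log2 differences ran from -0.34 to 0.28. The remaining probe sets were 1420622_a_at, at 5222 and 5041 in tip, 4998 and 4531 in stalk, and 6373 and 4573 in mesenchyme, and 1431182_at, at 123 and 92.2 in tip, 89.8 and 80.2 in stalk, and 102 and 122 in mesenchyme. For 1420622_a_at the first mesenchyme array was above all the others, and the second lay between the stalk arrays. Without the second mesenchyme array, tip minus mesenchyme was -0.31 and stalk minus mesenchyme -0.42 for it, and both passed. For the brightest Hspa8 probe set, 1420623_x_at, the 95% interval of stalk minus mesenchyme ran from -0.17 to 0.01.

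Hsp90aa1 encodes the inducible cytosolic HSP90, which matures kinases and steroid receptors. Probe set 1426645_at read 8512 and 8499 in tip, 7761 and 7671 in stalk, and 7865 and 7794 in mesenchyme. Probe set 1437497_a_at read 4383 and 4342 in tip, 3768 and 3721 in stalk, and 3957 and 4043 in mesenchyme. On both, the tip arrays were above all others. Tip exceeded stalk by 0.14 (adjusted p = 0.0129) and 0.22 (adjusted p = 0.00179), and mesenchyme by 0.12 (adjusted p = 0.0223) and 0.12 (adjusted p = 0.0237). The last tested probe set, 1438902_a_at, read 7657 on both tip arrays, 7794 and 7901 in stalk, and 7728 and 7924 in mesenchyme. It had tip below the others by -0.04 and -0.03 without passing, so the probe sets of the gene disagreed. The untested 1433251_at and 1441827_x_at lay between 18.6 and 24.8 on all mouse arrays. With median scaling none of the Hsp90aa1 differences passed (adjusted p = 0.222 to 0.545). With no intensity trend in the fit, the passes of 1426645_at and 1437497_a_at also ended (adjusted p = 0.0564 to 0.218). The values as deposited ended that of tip minus mesenchyme for 1437497_a_at (adjusted p = 0.0828). For 1426645_at, leaving out either stalk array ended the pass of tip minus stalk (0.15 and 0.13). Leaving out either stalk array or either mesenchyme array ended it for tip minus mesenchyme (0.11 to 0.13), as it did for 1437497_a_at (0.11 to 0.14), which also did not pass without the first tip array (0.12).

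Hspa5 encodes BiP, the HSP70 of the endoplasmic reticulum and a target of the unfolded protein response. Probe set 1416064_a_at read 7954 and 7502 in tip, 7392 and 7119 in stalk, and 6633 and 6890 in mesenchyme. Both tip arrays and both stalk arrays were above both mesenchyme arrays. Tip exceeded mesenchyme by 0.19 (1.14-fold, adjusted p = 0.00787), and the differences of 0.09 for tip minus stalk and 0.10 for stalk minus mesenchyme did not pass. Probe set 1427464_s_at read 3604 and 3447 in tip, 3428 and 3448 in stalk, and 3495 and 3378 in mesenchyme, and 1447824_x_at read 828 and 1053 in tip, 778 and 905 in stalk, and 814 and 1109 in mesenchyme. Neither passed in any comparison and their tissues overlapped, so only 1 of 3 Hspa5 probe sets had tip above mesenchyme. The pass of 1416064_a_at ended with median scaling (0.18, adjusted p = 0.129) and with no intensity trend in the fit (0.19, adjusted p = 0.0984). It also ended without the first mesenchyme array (0.16).

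Other chaperone genes were given by lists, with 1 probe set for each gene. The first held cytosolic chaperones and HSF1-driven genes outside the 8, among them the endoplasmic reticulum protein Serpinh1 and the mitochondrial Hspd1 and Hspe1. Of its 22 tested genes, 0 were called higher in tip than in stalk and 1 lower, Dnajb4, another DnaJ cochaperone, at -1.37. In tip against mesenchyme Dnajb4 (-1.37) and the HSP70 gene Hspa2 (-1.20) were called lower and 0 higher. In stalk against mesenchyme 0 were called, while 5 of the 19 probe sets above were called, all of them of Hspa1b or Hspb1. The list counts each gene once and those genes have several probe sets, so these counts are not in like units. Of the list, 0 passed as higher in stalk than in mesenchyme and 2 as lower, beside 8.15% and 4.91% of all probe sets. At any fold, 7 passed as higher and 5 as lower in tip against stalk, beside 13.8% and 14.7% of all probe sets, and 5 and 5 in tip against mesenchyme, beside 16.1% and 17.5%. The list medians were 0.09, 0.03 and -0.09 for tip minus stalk, tip minus mesenchyme and stalk minus mesenchyme. Bag3, an HSP70 exchange factor and a known HSF1 target, read 111 and 126 in tip, 183 and 177 in stalk, and 163 and 193 in mesenchyme. It was lower in tip than in stalk by a log2 difference of -0.55 (adjusted p = 0.00937) and than in mesenchyme by -0.53 (adjusted p = 0.00868), and stalk minus mesenchyme was 0.02. Serpinh1, the collagen chaperone HSP47 of the endoplasmic reticulum, was lower in tip by -0.57 against stalk and -0.62 against mesenchyme.

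Chaperones of other compartments had 0 calls in the 3 comparisons. Of 21 tested genes of the endoplasmic reticulum and the unfolded protein response, 10 passed as higher and 3 as lower in tip against mesenchyme. Of all probe sets 16.1% passed as higher and 17.5% as lower there. The list median was 0.15 beside 0.01 over all probe sets. The largest differences of the list in tip against mesenchyme were those of Creld2 (0.64), Sdf2l1 (0.45) and Herpud1 (-0.45). In tip against stalk 4 passed as higher and 3 as lower, beside 13.8% and 14.7% of all probe sets. In stalk against mesenchyme 2 passed as higher and 1 as lower, beside 8.15% and 4.91% of all. Of 8 subunits of the cytosolic chaperonin TRiC, 1 passed, Cct6a, at 0.13 for tip minus stalk. Of 6 mitochondrial protein quality control genes, 4 passed as higher in tip than in stalk, namely the protease subunit gene Clpp (0.39), the DnaJ gene Dnaja3 (0.36), and Hspe1 (0.25) and Hspd1 (0.18), which are also counted in the first list, 2 as higher in tip than in mesenchyme, and 1 as lower in stalk than in mesenchyme.

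**Figure D3:**
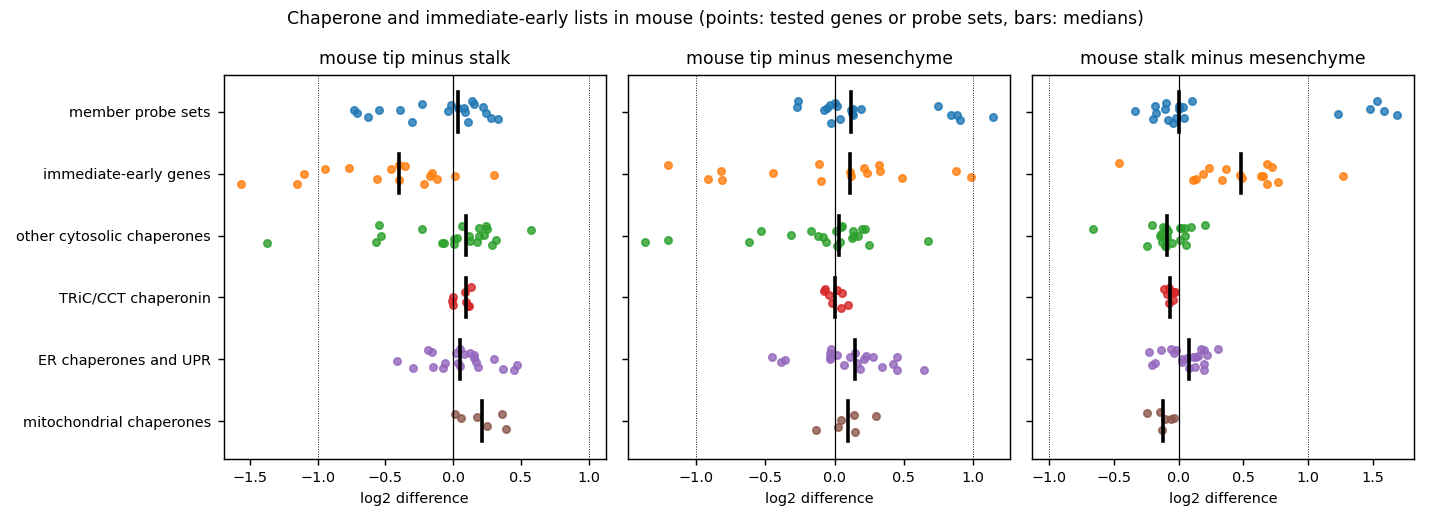
Log2 differences in mouse of the 19 tested chaperone probe sets and of the tested genes of 5 lists, with 1 panel each for tip minus stalk, tip minus mesenchyme and stalk minus mesenchyme. Points are probe sets or genes, spread vertically at random, thick bars are medians and dotted lines mark 2-fold. In stalk minus mesenchyme the 5 points of Hspa1b and Hspb1 stand above 1.23 while the median of the 19 is 0.00.

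The genes whose mouse profile lay nearest to the brightest Hspa1b probe set were found by Euclidean distance between log2 values centred over the 6 arrays, among 12368 genes. They were Rnase4, a secreted ribonuclease, at a distance of 0.17, Dkk3, a secreted Dickkopf-family protein, at 0.25, the membrane protein gene Tmem26 at 0.29, the glutathione transferase gene Gsta3 at 0.30 and the zinc finger transcription factor gene Klf6 at 0.34. Rnase4 averaged 438 in tip, 659 in stalk and 236 in mesenchyme. Klf6 averaged 571 in tip, 758 in stalk and 305 in mesenchyme and is on the immediate-early list. This is a description of 6 arrays of 3 RNAs.

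In rat, no chaperone probe set passed between bud and mesenchyme in the main fit, which does not use the labelling number. On the first design 0 of 10 tested were called and 0 passed, with 5 at an unadjusted p under 0.05, while 5.79% of all tested probe sets were called and 11.6% passed. The median difference of the 10 was 0.00 beside 0.02 over all. With the labelling number added to the fit, AA108277_at of Hsph1, Z75029_s_at of Hspa1a and S63521_i_at of Hspa5 passed, while 20.1% of all passed. Of these, AA108277_at was tested only through mesenchyme. On design C 0 of 1 was called, with 1 at an unadjusted p under 0.05, against 4.64% of all called and 11.2% passed.

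**Figure D4:**
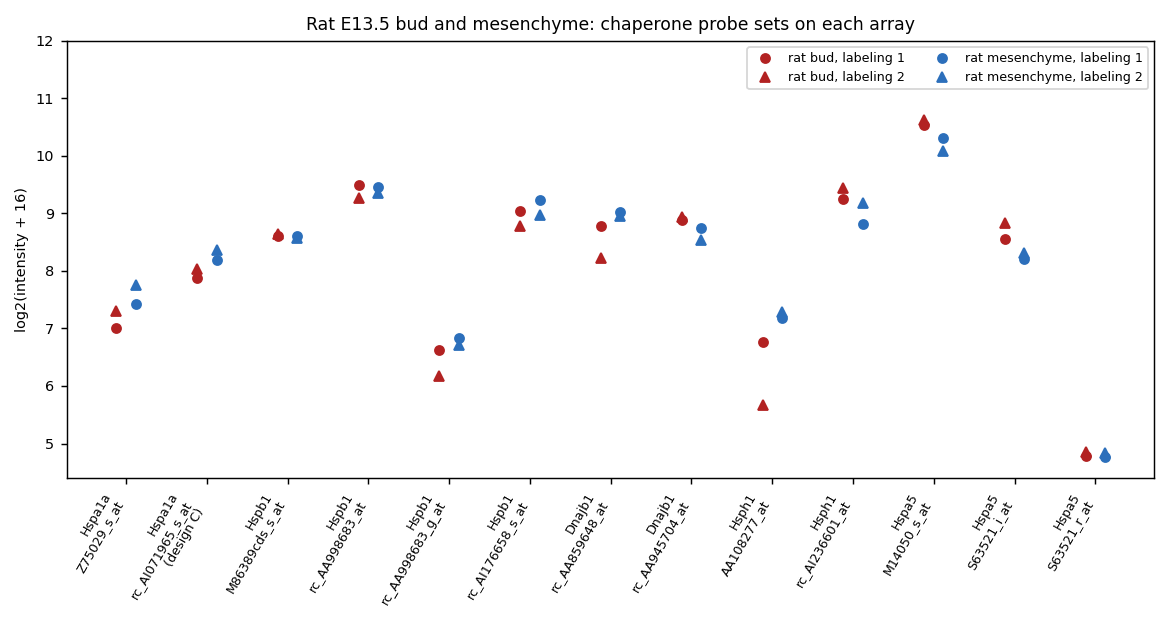
Signal of all 13 rat probe sets as log2(intensity + 16), with bud left of mesenchyme for each. Circles are the first and triangles the second labelling of each RNA. The largest gap between labellings is that of the Hsph1 probe set AA108277_at in bud, at intensities of 92.9 and 35.0.

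Hspb1 had 4 rat probe sets, and the 3 tested ones did not pass. M86389cds_s_at read 375 and 382 in bud and 373 and 363 in mesenchyme, a log2 difference of 0.04 with a 95% interval of -0.26 to 0.33. rc_AA998683_at read 708 and 598 in bud and 690 and 640 in mesenchyme (-0.03, interval -0.37 to 0.31). After normalisation both bud arrays were narrowly above both mesenchyme arrays on the first of these, and the tissues overlapped on the other. In the deposited values of M86389cds_s_at, the first bud array and both mesenchyme arrays read 369.1. rc_AI176658_s_at read 508 and 426 in bud and 583 and 486 in mesenchyme (-0.19, interval -0.57 to 0.19). The untested rc_AA998683_g_at read 82.7 and 55.9 in bud and 97.8 and 89.1 in mesenchyme, below the design median of 111. In mouse, a bud value that weights tip and stalk alike exceeded mesenchyme for Hspb1 by 1.03 (interval 0.74 to 1.33) and 1.41 (interval 1.17 to 1.66), where 5 of 19 chaperone probe sets and 2.87% of all were called higher. Species, stage, dissection and array design all differ between these values, the tables were normalised separately, and the difference between mouse and rat was not tested.

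Hspa1a was read in rat by Z75029_s_at, at 112 and 141 in bud and 156 and 200 in mesenchyme, and by rc_AI071965_s_at of design C, at 218 and 246 in bud and 278 and 312 in mesenchyme. Both bud arrays were below both mesenchyme arrays on each design. The log2 differences were -0.44 (adjusted p = 0.173) and -0.33 (adjusted p = 0.145) and did not pass. Without the second bud labelling, Z75029_s_at was lower in bud by -0.59 and passed (adjusted p = 0.000399), while rc_AI071965_s_at stood at -0.41 (adjusted p = 0.122).

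The rat cochaperones had probe sets on both sides. The Dnajb1 probe set rc_AA859648_at read 422 and 285 in bud and 506 and 478 in mesenchyme (-0.48, adjusted p = 0.176), and rc_AA945704_at read 454 and 472 in bud and 412 and 356 in mesenchyme (0.26, adjusted p = 0.278). The Hsph1 probe set AA108277_at read 92.9 and 35.0 in bud and 128 and 139 in mesenchyme (-1.01, adjusted p = 0.114), and rc_AI236601_at read 593 and 676 in bud and 433 and 567 in mesenchyme (0.34, adjusted p = 0.26). For both genes bud and mesenchyme did not overlap on either probe set after normalisation, and the probe sets ran in opposite directions. In the deposited values of rc_AI236601_at, the first bud array and the second mesenchyme array both read 580.8. The low bud readings of rc_AA859648_at and AA108277_at came mostly from the second labelling, the one with the high Gapdh ratio, whose part in them was not tested. Both bud arrays of AA108277_at were below the design median of 111, so that probe set was tested only through mesenchyme, where it is high, and its p-values support no difference. Without the second labelling the differences were -0.21 for rc_AA859648_at and -0.46 for AA108277_at, and 2 of the 10 probe sets passed, while 24.1% of all passed. Without the first bud labelling they were -0.76 and -1.55, and 5 of the 10 passed, while 42.4% of all passed.

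Hspa5 was above mesenchyme in both rat bud labellings on 2 probe sets. M14050_s_at read 1460 and 1558 in bud and 1249 and 1072 in mesenchyme (0.38, adjusted p = 0.14), and S63521_i_at read 362 and 439 in bud and 279 and 303 in mesenchyme (0.44, adjusted p = 0.111). Neither passed, and without the second bud labelling the differences were 0.33 (adjusted p = 0.0668) and 0.30 (adjusted p = 0.106). Without the first they were 0.42 and 0.57, and both passed. The untested S63521_r_at read 11.7 and 12.9 in bud and 11.1 and 12.4 in mesenchyme.

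Beside the rat chaperones, 4 of 13 tested immediate-early genes were called higher in bud on the first design, Klf6 (1.33), Egr1 (1.27), Nr4a1 (1.11) and Atf3 (1.06), and 0 passed as lower. Of all 4626 tested probe sets of that design, 128 were called higher. The median of the 13 was 0.04 beside 0.02 over all probe sets, and Jund (-0.64, adjusted p = 0.128) and Dusp1 (-0.61, adjusted p = 0.244) did not pass. The 13 genes summed to 9732 and 10645 in bud and to 6993 and 7055 in mesenchyme. Of 14 tested genes of the list of cytosolic chaperones and HSF1-driven genes, 0 passed as higher and 1 as lower, Serpinh1 at -0.93 (adjusted p = 0.0141), and of 8 genes of the endoplasmic reticulum 0 passed. Of all tested probe sets of the first design, 11.6% passed in either direction. On design B 1 of 10 genes of the endoplasmic reticulum, Creld2 (0.50, adjusted p = 0.0338), and 1 of 4 TRiC subunits, Cct8 (0.56, adjusted p = 0.0308), passed as higher in bud. Of all tested probe sets of design B, 17.5% passed in either direction.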

How the data were processed

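Titles and source names assigned 18 arrays to 5 tissues, 2 arrays for each tissue on each design. Values deposited by the authors are linear intensities, 1 for every probe set on an array. How probe signals were summarised and scaled is not given in the sources used here. RNA was column-purified and labelled by the manufacturer's procedure, per the labels. Gene symbols came from the platform annotation. The genes and lists were chosen with earlier results of these data known.

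Quantile normalisation was applied to the deposited intensities, table by table, before conversion to log2(intensity + 16), and control probe sets (64 in mouse, 59 in each rat table) were dropped. Testing required a tissue mean at or above the table median (intensity 49.3 for mouse; 111, 118 and 115 for the first rat design, B and C). This kept 23971 of 45037 mouse probe sets and 4626, 4666 and 4660 rat probe sets. Mouse arrays were fitted together and every rat design separately, with limma 3.58.1 (lmFit, eBayes with an intensity trend) in R 4.3.3. Every adjusted p is from these fits, or from the same procedure under an alternative where the text names one. The procedure was tested on simulated data with 200 changed probe sets. Every probe set of the 8 genes is named; of a list, the genes called or, failing that, up to 3 of the largest differences, with Bag3, Serpinh1, Hspd1, Hspe1, Jund and Dusp1 added after their values were seen. Alternatives were no further normalisation, median scaling, pseudocounts of 1 and 64, no filter, eBayes without a trend, the labelling number as a block, and each array left out in turn.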

Additional observations from a re-analysis of the deposited data

Results flagged for a closer look

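The tip and the stalk of the mouse bud differed from each other on 9 probe sets by the limma test of tip minus stalk. Of 19 tested, 4 were higher and 5 lower in tip, beside 13.8% and 14.7% of all probe sets. The difference was -0.71 and -0.73 for the Hspa1b probe sets 1427127_x_at and 1452318_a_at and -0.55 for the Hspb1 probe set 1425964_x_at, with both tissues above mesenchyme. It was -0.30 and -0.23 for the Dnajb1 probe sets 1416755_at and 1416756_at, 0.33 and 0.24 for the Hsph1 probe sets 1423566_a_at and 1425993_a_at, and 0.14 and 0.22 for the Hsp90aa1 probe sets 1426645_at and 1437497_a_at.

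Mouse and rat ran in opposite directions on some Hspb1 probe sets. Both tip and both stalk arrays lay above both mesenchyme arrays for the mouse probe sets 1422943_a_at and 1425964_x_at, while both rat bud arrays lay below both mesenchyme arrays for rc_AA998683_g_at, at -0.38. The rat probe set was below the intensity needed for testing, the other rat Hspb1 probe sets did not show this, and the difference between the species was not tested.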

How the results depend on the processing

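The 5 calls of Hspa1b and Hspb1 in stalk against mesenchyme held under every alternative except that 4 to 5 were called when an array was left out. Of 31 passes in mouse, median scaling ended 13, eBayes without a trend 10, the values as deposited 5 and no filter 2, and the pseudocounts and the block 0. Passes were also gained. Over the alternatives that kept all arrays, 4 to 12 members passed for tip minus stalk and 5 to 12 for tip minus mesenchyme. With the block, 41.8% of all probe sets passed for tip minus stalk, against 28.5% without it. The shares were 43.2% against 33.6% for tip minus mesenchyme and 22.6% against 13.1% for stalk minus mesenchyme. With a pseudocount of 64, members called were 0 for tip minus mesenchyme and 1 for the bud mean minus mesenchyme, against 1 and 5, and all probe sets called were 671 for tip minus stalk, 1266 for tip minus mesenchyme, 392 for stalk minus mesenchyme, 658 for the bud mean minus mesenchyme and 172 on rat design B, against 1098, 1954, 663, 1112 and 271. With a pseudocount of 1, 2 members were called for tip minus mesenchyme. Leaving out 1 array gave 1 to 3 members called for tip minus mesenchyme and 0 to 1 on the first rat design, and 238 to 475 and 80 to 360 probe sets called on the first rat design and design C. The rat Hspb1 probe set rc_AA998683_at changed sign without passing, to 0.0062 with median scaling, and ran from -0.15 to 0.089 with 1 array left out. Over all 1109 alternative values of the chaperone differences, 42 changed sign, none of them where either value passed. Labels share only a labelling number. Deviations of same-numbered arrays correlated at 0.47, 0.57 and 0.42 in mouse and 0.31, 0.22 and 0.29 in rat. With the labelling number as a block, members called were 0, 1, 5 and 5 in the mouse comparisons as without it, 1 on the first rat design, against 0, and 0 on design C; AA108277_at (-1.01, adjusted p = 0.0445; tested only through mesenchyme), Z75029_s_at and S63521_i_at then passed, while 20.1% of all passed, against 11.6% without the block. The causes were not tested. Signal near background limits Hspa1a in mouse and the 4 other untested probe sets.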
